A study of Mus musculus with 9 samples.

Results

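Chromatin accessibility was examined at 9 genes that bind, make, break down or respond to retinoic acid: Crabp1, Crabp2, Aldh1a2, Aldh1a3, Cyp26b1, Rara, Rarb, Rarg and Rxra. They were chosen by name from the 21938 protein-coding genes of GENCODE M21 on the assembled chromosomes. For each gene, ATAC-seq peaks within 1 kb of any annotated TSS were collected, together with all peaks in the gene body and 10 kb on either side. Peaks of the 4 groups were merged into sites wherever they overlapped or touched, which gave 118 sites in the windows of the 9 genes, of 128522 sites in all. Of the 118 sites, 18 lay at a TSS of their gene and 100 lay elsewhere.

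All cells were primary mouse embryonic fibroblasts (MEFs) below passage 8. The WT group had 3 libraries of MEFs from wild type embryos, and the Anp32e null group had 3 libraries of MEFs without the histone chaperone ANP32E, which removes the histone variant H2A.Z from chromatin. The remaining groups were also Anp32e null: 1 library from cells transfected with a non-targeting (NT) siRNA pool, and 2 libraries from cells transfected with siRNAs against H2A.Z. The null genotype is therefore shared by 3 of the 4 groups, and no transfected WT cells were compared. ATAC-seq uses the Tn5 transposase to insert adapters into open chromatin. Peaks had been called on the merged libraries of each group, so that every group was 1 list of peaks with no replicate values. No test between groups was possible, and intervals given below cover counting error only.

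Retinoic acid is made from retinol in consecutive oxidation steps, the last of which is carried out by ALDH1A enzymes, and CYP26 enzymes break it down. CRABP proteins bind it in the cytoplasm, and it acts in the nucleus through retinoic acid receptors (RARs) paired with retinoid X receptors (RXRs). These pairs sit on response elements built of repeated hexamers, and Rarb itself is a classical target gene with such an element at its promoter. In embryonic mesenchyme, from which MEFs derive, graded retinoic acid patterns limbs, somites and face.

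The lists held 84040 peaks in WT, 82567 in null, 89272 with NT siRNA and 108409 with H2A.Z siRNA. Depth differed between the lists. The genome-wide background, in fragments expected at a position, ranged from 3.88 after NT siRNA to 17.8 after H2A.Z siRNA, with 8.85 in WT and 5.12 in null. A summit over this background therefore needed at least 19 fragments to be called in WT, 13 in null, 11 with NT siRNA and 32 with H2A.Z siRNA. All 7 fibroblast promoters checked (Col1a1, Col1a2, Col3a1, Thy1, Pdgfra, Twist2 and Prrx1) had a TSS peak in every list. Of 7 promoters of other cell types, Ptprc (leukocytes) and Hba-a1 (erythroid cells) had none in any list, whereas Cdh1, Epcam and Cdh5 had one in every list, Pecam1 in all but null and Sox10 in all but WT. A TSS peak is thus no sign of cell type by itself, and peak lists give no transcript levels, so that neither the deletion nor the knockdown could be checked in them.

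Peaks are described below by the percentile rank of their fold enrichment within the list, where 100 is the strongest peak. Fold enrichment is the summit pileup over the local background of the same list. The number of fragments at the summit was recovered from the fold enrichment and the p-value of the peak. Divided by the genome-wide background of the list it gives the scaled height, which can be set side by side across depths. At the median site shared by WT and null, scaled height in null was 1.51 times that in WT (log2 0.59). Between the siRNA lists the median was 0.828 times (log2 −0.27, H2A.Z siRNA over NT siRNA), and between NT siRNA and null it was 1.79 times (log2 0.84). Ratios at member sites are therefore given relative to these medians.

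Crabp1 (ENSMUSG00000032291.8, chromosome 9, 54764748 to 54773110, plus strand) encodes a cytoplasmic retinoic acid binding protein and was the only member with no peak at any of its TSSs in one of the lists. The WT list had no peak within 1 kb of its single annotated TSS. The null peak (chr9:54764748-54765811) began at the first base of the gene. The peak after NT siRNA (chr9:54764163-54765873) and that after H2A.Z siRNA (chr9:54764063-54766026) also took in the sequence upstream. Summits lay 71, 60 and 69 bp downstream of the TSS, the null one in the 5′ UTR. The upstream 250 bases, chr9:54764498-54764747 on the plus strand of mm10, are shown because they were covered by the peaks of both siRNA lists but not by the null peak, and capitals mark the GC box (GGGCGG, either strand).
Crabp1 upstream: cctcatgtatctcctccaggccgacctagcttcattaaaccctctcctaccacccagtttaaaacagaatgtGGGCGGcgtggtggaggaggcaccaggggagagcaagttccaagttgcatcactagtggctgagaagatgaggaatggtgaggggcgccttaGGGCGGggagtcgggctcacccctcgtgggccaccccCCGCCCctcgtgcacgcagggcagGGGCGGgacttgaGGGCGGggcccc

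This stretch held 5 GC boxes and was 63.6% G or C. Among RefSeq promoters of 300 bases (GRCm38.p6), 35.7% of 32851 held at least 1 GC box, as did 7 of the 12 promoter entries found for the members. A GC box is a common promoter motif bound by SP1-type factors, and the count is a description of the sequence only.

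At the Crabp1 TSS, the null summit held 32 fragments (exact Poisson interval 21.9 to 45.2), that after NT siRNA 63 (48.4 to 80.6) and that after H2A.Z siRNA 218 (190 to 249). In scaled height these were 6.26, 16.2 and 12.2 times the background, and in percentile rank 44.6, 62.4 and 58. The counting interval of the null pileup alone spans ranks of 20.2 to 63.9 in the null list. Brought to the depth of the WT list, the null pileup corresponded to 55.3 fragments (37.8 to 78.1), whereas 19 would have been called in WT over the genome-wide background and 21 over the null peak's own local background at that depth. With the median shift of 1.51 between the lists also taken out, it corresponded to 36.7 fragments (25.1 to 51.8), still above 21. The list of the shallower group thus held the peak, and the difference in presence between WT and null was larger than these counting limits under both scalings. Below, a summit set against the limit of another list is first scaled by background alone, and then with the median shift taken out as well.

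Scaled height was 1.45 times higher after NT siRNA than in null relative to the median shift (0.935 to 2.3), and 0.91 times after H2A.Z siRNA compared with NT siRNA (0.684 to 1.22). Both intervals include 1. Without the median shift, the ratio of NT siRNA to untransfected null was 2.6 (1.67 to 4.11), so that the difference in height at this TSS was not detectably larger than that at the median site shared by these lists. The width was 1064 bp in null, 1711 bp after NT siRNA and 1964 bp after H2A.Z siRNA, or 1.16, 1.94 and 1.87 times the median TSS peak of the same list. Crabp1 was 1 of 307 protein-coding genes with a TSS peak in null and none in WT (1.4% of those tested, against 1.89% with the opposite pattern). Its null rank was above that of 271 of them, whose median rank was 14.7. With the peak also present in both siRNA lists, it belonged to 178 such genes (0.811%).

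Of the other Crabp1 sites, one overlapped the 3′ end of the gene. This site (chr9:54772681-54773901), with the null summit 123 bp beyond the last base of the gene, was called in all lists and ranked 32 in WT, 49 in null, 79.4 with NT siRNA and 76.8 with H2A.Z siRNA. Its scaled height in null was 1.19 times the median shift (0.694 to 2.03), an interval that includes 1, and after NT siRNA it was 2.07 times that in null (1.36 to 3.23). The 101 bases around the null summit of this site, chr9:54773183-54773283 on the plus strand, are given because it was the only Crabp1 site shared by WT and null, and none of its letters is in capitals because no retinoic acid response element of the kind searched was in it.
Crabp1 3′ site: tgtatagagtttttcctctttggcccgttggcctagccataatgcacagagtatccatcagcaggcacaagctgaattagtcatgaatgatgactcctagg
A site at −7703 bp from the TSS (chr9:54756835-54757056) was called in WT alone, at rank 1.5 and with 22 fragments. At the depth of the null list this summit corresponded to 12.7 fragments, or 19.2 with the median shift (12 to 29), where 15 were needed, so that its absence from null was within counting error. A site downstream (chr9:54781454-54782096) was called in both siRNA lists alone, at ranks 13.6 and 34.2. Its NT siRNA summit corresponded to 22.4 fragments at null depth (13.1 to 35.9), or 12.5 with the median shift (7.3 to 20.1). With a limit of 14, the absence of this site from null was within counting error.

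**Figure D1:**
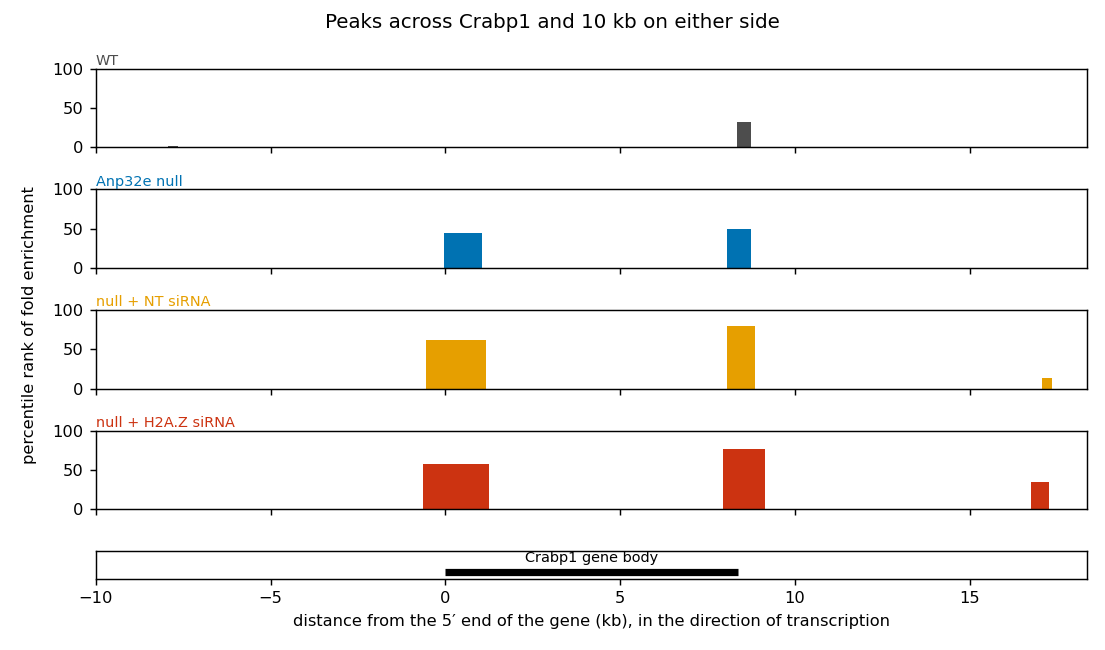
Peaks across Crabp1 in the 4 lists. The horizontal axis is the distance in kb from the TSS, each bar spans a peak, and its height is the percentile rank of fold enrichment within the list (0 to 100). WT has no bar at 0 kb, whereas the 3 null lists have bars of rank 44.6, 62.4 and 58 there, and all lists have a bar at the 3′ end.

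Crabp2 (ENSMUSG00000004885.5, chromosome 3, 87948666 to 87953376, plus strand), which carries retinoic acid to its nuclear receptors, had a TSS peak in every list. It ranked 28 in WT, 31.8 in null, 35.7 with NT siRNA and 47 with H2A.Z siRNA, with summits 261 to 472 bp downstream of the TSS, in an intron for the null summit. The summits held 49, 48, 145 and 627 fragments. Relative to the median shift, the null peak was 1.12 times as high as the WT peak (0.739 to 1.71), which includes 1. A neighbouring intronic site (chr3:87949599-87950245), whose peaks began within 1 kb of the TSS in both siRNA lists, was called in the 3 null lists, at ranks 0.632, 19.1 and 30, and not in WT. In null it rested on 27 fragments, or 46.7 at WT depth (30.8 to 67.9) against a limit of 36, or 31 with the median shift (20.4 to 45.1), so that its absence from WT was within counting error. That was not so for the other sites of the Crabp2 window with this pattern, in a UTR of the neighbouring gene Isg20l2 (chr3:87940143-87940503) and downstream of Crabp2 (chr3:87955201-87955482). The first ranked 19.6, 17 and 28.4 in the null lists and corresponded to 83 fragments at WT depth (61.2 to 110), or 55.1 with the median shift (40.6 to 73), against a limit of 40. The other ranked 26.8, 16.1 and 11.6 and corresponded to 77.8 fragments (56.8 to 104), or 51.6 (37.7 to 69.1), against a limit of 34. A site with the opposite pattern, chr3:87959309-87959993, ranked 35.4 in WT with 53 fragments and was not called in null. It ranked 16.8 and 33.4 in the siRNA lists. At null depth the WT summit corresponded to 30.7 fragments (23 to 40.1), or 46.2 with the median shift (34.6 to 60.4), above the limit of 20.

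The strongest site of the Crabp2 window outside its TSSs (chr3:87942320-87942916) lay between genes at −6025 bp from the TSS, and ranked 66.7, 74.2, 67.2 and 58.7 in WT, null, NT siRNA and H2A.Z siRNA. In null its scaled height was 1.49 times the median shift (1.14 to 1.96), and after H2A.Z siRNA 0.751 times (0.661 to 0.855), both intervals excluding 1. In its window of 24.7 kb, Crabp2 had 10 sites, or 40.5 per 100 kb, the highest density of the 9 members.

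Aldh1a2 and Aldh1a3 encode enzymes that oxidise retinaldehyde to retinoic acid. Aldh1a2 (ENSMUSG00000013584.5, chromosome 9, 71215789 to 71296243, plus strand) had a TSS peak that ranked 59.1 in WT and 58.9 in null, and 81.2 with NT siRNA and 89.2 with H2A.Z siRNA. Its summit lay 278 to 401 bp upstream of the TSS in all lists, with 46, 37, 75 and 381 fragments. The untransfected lists were thus alike in rank, and the siRNA lists stood over 20 points above them. Scaled height after NT siRNA was 1.5 times the median shift from null (0.996 to 2.28), and after H2A.Z siRNA 1.34 times that from NT siRNA (1.04 to 1.73).

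Within the Aldh1a2 gene, an intronic site 73189 bp downstream of the TSS (chr9:71287882-71289348) was the strongest site away from the TSS, with ranks of 81, 91, 88.2 and 92.3. Another intronic site (chr9:71269724-71270305) was called in WT at rank 42.9 with 35 fragments, and after both siRNAs at 42.5 and 41.8, but not in null. At the depth of the null list the WT summit corresponded to 20.2 fragments (14.1 to 28.2), or 30.5 with the median shift (21.2 to 42.4), above the limit of 13.

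Aldh1a3 (ENSMUSG00000015134.15, chromosome 7, 66390890 to 66427517, minus strand) carried a promoter peak in all 4 lists, at ranks 69.8 in WT, 66.8 in null, 76.4 with NT siRNA and 79.5 with H2A.Z siRNA. The summits held 78, 46, 88 and 294 fragments. In null this was 0.677 times the median shift (0.459 to 0.986), an interval below 1, although rank changed by only −2.97 points. The strongest other site in its window (chr7:66387446-66389671) lay within 1 kb of a TSS of the neighbouring kinase gene Lrrk1, and ranked 57.7, 60.9, 59.8 and 54.2.

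Cyp26b1 (ENSMUSG00000063415.12, chromosome 6, 84571414 to 84593908, minus strand) encodes a cytochrome P450 that inactivates retinoic acid. Its highest-ranked TSS peak stood at 25 in WT, 34.5 in null, 41.2 with NT siRNA and 34 with H2A.Z siRNA. The summits held 49, 54, 127 and 342 fragments. All 4 summits lay within 125 bp of an internal TSS, 84587680, in an intron of the longer transcripts, and no list had a peak within 1 kb of the 5′ end of the gene. After H2A.Z siRNA the scaled height was 0.708 times the median shift from NT siRNA (0.576 to 0.875), whereas in null it was 1.26 times that from WT (0.843 to 1.9), which includes 1. Another TSS site (chr6:84588824-84589487) was called after H2A.Z siRNA alone, at rank 22.6 with 238 fragments. At NT siRNA depth it corresponded to 51.8 fragments (45.5 to 58.9), or 62.6 with the median shift (54.9 to 71), above the limit of 31. A 3′ flanking site (chr6:84560982-84561799) was the strongest of the window, at ranks 75.1, 75.3, 81.9 and 80.1.

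Rara (ENSMUSG00000037992.16, chromosome 11, 98927818 to 98974942, plus strand) encodes a retinoic acid receptor found in most tissues. With 7 annotated TSSs it had 5 TSS peaks in WT, 4 in null, 3 with NT siRNA and 2 with H2A.Z siRNA, where neighbouring peaks were joined into wide ones, the widest of 4922 bp. The highest-ranked TSS peak stood at 28.3 in WT, 19.8 in null, 28.8 with NT siRNA and 43 with H2A.Z siRNA. The last value belongs to the joined peak of 4922 bp, whose summit lay 3377 bp downstream of the nearest TSS. Peaks of null and NT siRNA in the same merged site ranked 42.4 and 31.4, but lay over 1 kb from a TSS. The value of 43 is therefore not comparable with the other lists as a TSS rank. After NT siRNA the rank was low although the summit was tall. The 177 fragments of that peak were 45.6 times the genome-wide background, and the local background beneath it was 9.4 times the genome-wide one. In null, the highest-ranked TSS summit held 49 fragments, against a median of 43 over all peaks of that list. The strongest site away from the Rara TSSs (chr11:98981592-98982982) lay in a coding exon of the neighbouring gap junction gene Gjd3, at its TSS, with ranks of 77.5, 83.3, 81.8 and 86.2.

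Rarb (ENSMUSG00000017491.9, chromosome 14, 16430839 to 16819156, minus strand), the receptor gene that is itself induced by retinoic acid, had the highest-ranked TSS of the 9 members in WT, null and H2A.Z siRNA. The peak stood at an internal promoter, with its null summit 11 bp upstream of a TSS at 16575543. It ranked 93 in WT, 90.7 in null, 77.4 with NT siRNA and 95.7 with H2A.Z siRNA, with 161, 123, 110 and 559 fragments and widths of 962, 903, 1026 and 1045 bp. The NT siRNA list was thus the lowest of the 4. Its scaled height was 0.66 times the median shift from null (0.505 to 0.86), and after H2A.Z siRNA it was 1.34 times that from NT siRNA (1.09 to 1.65), whereas null against WT was 0.876 times (0.687 to 1.12), which includes 1.

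The Rarb promoter was also the only one of the members' 12 RefSeq promoter entries with a direct repeat of the hexamers AGGTCA and AGTTCA or their variants GGGTCA and GGTTCA, in any combination, with 1, 2 or 5 bases between them and on either strand. The repeat has a spacer of 5 bases, as in the known response element of this gene, and lies at chr14:16575513-16575529 on the minus strand, 37 to 53 bp upstream of the RefSeq start and inside the peak of all 4 lists. GENCODE counts this stretch as 5′ UTR of a longer transcript. A second match, with a spacer of 1 base, lay in a Rarb intron at chr14:16677128-16677140. Both are shown with 6 bases on either side and with the hexamers in capitals, because they were the only matches within 150 bp of the summits of the 118 member sites.
Rarb promoter, chr14:16575507-16575535, minus strand: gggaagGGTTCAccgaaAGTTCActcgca
Rarb intron, chr14:16677122-16677146, minus strand: gccaaaGGGTCAaAGTTCAggagca

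In windows of 300 bases centred on summits, 0.554% of all 128522 sites held such a repeat, and 2 of the 118 member sites did (1.69%). The spacer of 5 was in 0.136% of all sites and 0.0974% of all promoters, and the spacer of 1 in 0.204% of sites. The intronic site with the spacer of 1 (chr14:16676920-16677391) ranked 63.2 in WT, 60.3 in null, 22.9 with NT siRNA and 54.5 with H2A.Z siRNA, again lowest after NT siRNA, where it rested on 20 fragments.

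The upstream promoter of Rarb, at the 5′ end of the gene, was weaker. The site there (chr14:16817386-16819128) had its highest-ranked peaks at 49, 34.9, 29.2 and 53.2 in WT, null, NT siRNA and H2A.Z siRNA, and 0.465 times the median shift after NT siRNA compared with null (0.282 to 0.756). The strongest Rarb site, and the strongest of all 118 by mean rank, was intronic (chr14:16765719-16766551, 53094 bp downstream of the 5′ end), with ranks of 97.7, 98.4, 92.9 and 94.6 and 206, 209, 230 and 795 fragments. Among the intronic sites called in the 3 null lists and not in WT, chr14:16771093-16771428 had ranks of 14.7, 38.1 and 65. In null it held 18 fragments, or 31.1 at WT depth (18.4 to 49.2) against a limit of 19, so that its absence from WT was within counting error. Another, chr14:16605476-16605800, ranked 13.9, 37.6 and 30.8, and its 22 fragments in null corresponded to 38 at WT depth (23.8 to 57.6), above the limit of 23, but to 25.2 with the median shift (15.8 to 38.2), an interval that includes the limit. The 101 bases around the null summit of the first, chr14:16771190-16771290 on the minus strand, are given as the best-ranked such site of a receptor gene; no direct repeat was in them.
Rarb intron, 47916 bp downstream: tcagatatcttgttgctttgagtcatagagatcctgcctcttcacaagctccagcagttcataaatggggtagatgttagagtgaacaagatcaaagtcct

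Across its window of 408 kb, Rarb had 35 sites, or 8.57 per 100 kb, of which 20 were called in every list. Between WT and null, 24 sites were shared, and 6 of them ranked at least 10 points lower in null (21.4% over all shared sites) and 2 at least 10 points higher (19.1% over all). The covered length was shorter in null at 19 of the 24, compared with 54.5% of all shared sites. A further 6 of the 35 sites were called in WT and not in null (12.3% over all sites), and 3 in null and not in WT (10.9% over all). Of the sites called in WT and not in null, those of highest WT rank were intronic, at chr14:16541511-16542114 (rank 61.2, 48 fragments) and chr14:16741271-16741922 (rank 52.7, 41 fragments). The first was called again after H2A.Z siRNA, at rank 78.1 with 194 fragments, but not after NT siRNA, and the other in both siRNA lists, at ranks 18.4 and 6.14. Both stood above the limit of 13 fragments of the null list when brought to its depth, at 27.8 (20.5 to 36.8) and 23.7 (17 to 32.2), and also with the median shift, at 41.8 (30.8 to 55.5) and 35.7 (25.6 to 48.5).

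**Figure D2:**
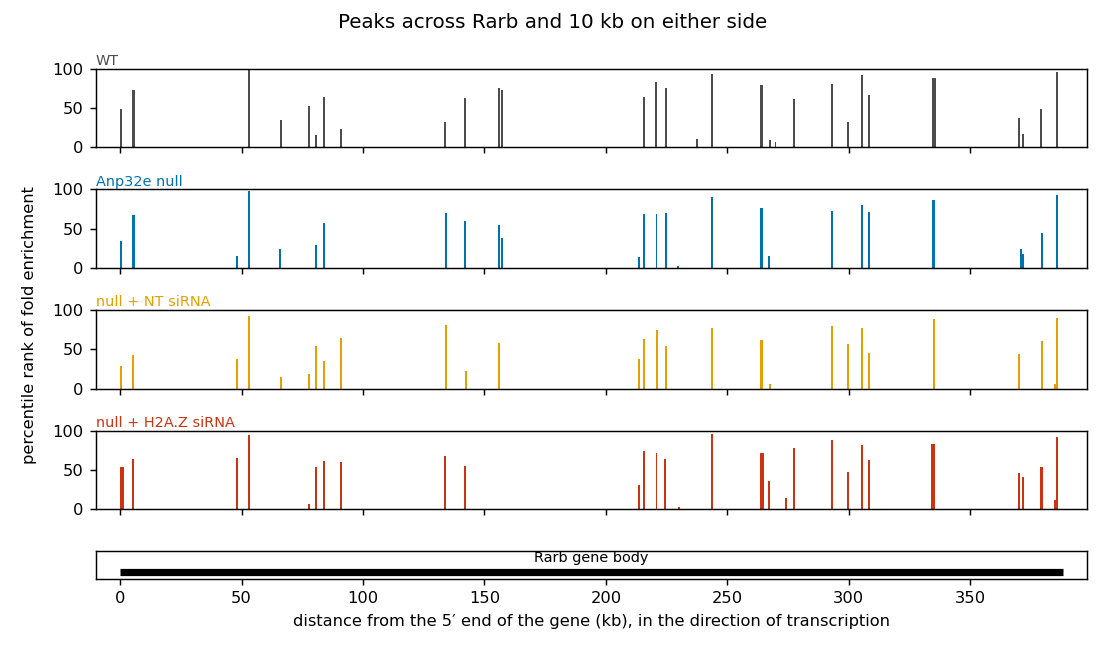
Peaks across Rarb in the 4 lists. The horizontal axis is the distance in kb from the 5′ end of the gene in the direction of transcription, each bar marks the highest-ranked peak of a site, and bar height is the percentile rank of fold enrichment. The strongest site, 53094 bp downstream, has ranks of 92.9 to 98.4, and the bar 243602 bp downstream is the internal promoter that holds the direct repeat.

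Rarg (ENSMUSG00000001288.15, chromosome 15, 102234938 to 102257517, minus strand) encodes the receptor prominent in skin and cartilage precursors. Its highest-ranked TSS peak stood at 51.7 in WT, 57 in null, 51.5 with NT siRNA and 61.9 with H2A.Z siRNA. The tallest summit was at another promoter (chr15:102245650-102248130), with 125, 133, 362 and 1687 fragments, yet it ranked 47.3, 41.8, 35.7 and 47.1. The local background there was 17 times the genome-wide one after NT siRNA and 18.6 times after H2A.Z siRNA, compared with 3.54 times in WT. At an internal promoter (chr15:102243356-102244535) the null summit was 1.56 times the median shift from WT (1.16 to 2.1), above 1, with 81 fragments in WT and 110 in null. The strongest site away from the TSSs (chr15:102224150-102225122) lay in a coding exon of the integrin gene Itgb7 and ranked 64.9, 76.2, 88.2 and 88.6.

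Rxra (ENSMUSG00000015846.14, chromosome 2, 27676440 to 27762957, plus strand) encodes the common partner of the RARs. Its highest-ranked TSS peak was not at the 5′ end but at an internal TSS, 27740201 (chr2:27739818-27740904), in an exon of a non-coding Rxra transcript, and ranked 48.8 in WT, 65.5 in null, 85.3 with NT siRNA and 82.7 with H2A.Z siRNA. The summits held 71, 79, 322 and 1135 fragments. This was 1.28 times the median shift in null (0.915 to 1.78), which includes 1, and 3.01 times after NT siRNA compared with null (2.34 to 3.9). At the 5′ end of the gene (chr2:27676037-27677038) the order was another one, with ranks of 45.2, 26.3, 33.3 and 34.2. Null against WT was 0.744 times the median shift there (0.506 to 1.08), which includes 1. A further Rxra TSS, 27710583, had a peak in both siRNA lists (chr2:27710138-27711335), at ranks 1.49 and 24.5 with 40 and 210 fragments, and none in WT or untransfected null. The NT siRNA summit there corresponded to 52.7 fragments at null depth (37.7 to 71.8), above the limit of 37. With the median shift it corresponded to 29.5 (21.1 to 40.2), an interval that includes the limit.

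Of the other Rxra sites, the strongest was intronic (chr2:27757936-27759241), at ranks 57.6, 56.5, 84.1 and 81.5. One intronic site (chr2:27718119-27718877) was called in the 3 null lists and not in WT, at ranks 9.32, 33.9 and 52.3. With 33 fragments in null it corresponded to 57.1 at WT depth (39.3 to 80.1), above the limit of 34, but to 37.9 with the median shift (26.1 to 53.2), an interval that includes the limit. The 101 bases around its null summit, chr2:27718324-27718424 on the plus strand, are given because it was the only such Rxra site, and they were 63.4% G or C with no direct repeat.
Rxra intron, 41934 bp downstream: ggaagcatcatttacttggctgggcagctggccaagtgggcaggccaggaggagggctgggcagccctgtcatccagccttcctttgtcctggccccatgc

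Over the 9 members, a TSS peak was present for 8 in WT and for 9 in each of the null lists, compared with 67.2% of all protein-coding genes in WT, 66.7% in untransfected null, 66.8% in the NT siRNA list and 68.4% in the H2A.Z siRNA list. No member had a TSS peak in WT but not in null (1.89% of genes), in H2A.Z siRNA but not in NT siRNA (2.06%), or in NT siRNA but not in H2A.Z siRNA (0.483%). In WT and null, most of their peaks ranked low among TSS peaks. The median TSS rank over genes with a TSS peak was 81.7 in WT and 80 in null, and 7 of the 8 members with a WT peak ranked below it, Rarb being the exception. Among the WT TSS peaks of all protein-coding genes, Cyp26b1, Crabp2 and Rara stood at percentiles 6.02, 6.89 and 7.07, and Rarb at 77.6. After NT siRNA, Aldh1a2 and Rxra stood above the median of that list, at percentiles 53.4 and 61.9. After H2A.Z siRNA, Aldh1a2, Rarb and Rxra did, at 67.6, 86.1 and 52.7, and the other members stood below. In null the order ran from Rarb through Aldh1a3, Rxra, Aldh1a2, Rarg, Crabp1, Cyp26b1 and Crabp2 to Rara. Counting error alone covered ranks of 83.2 to 96.2 for Rarb, above the interval of every other member. Between Aldh1a3 (50 to 80.3) and Rara (3.35 to 39.1) the intervals of all neighbours in this order overlapped, and that of Crabp1 overlapped those of all members but Rarb.

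**Figure D3:**
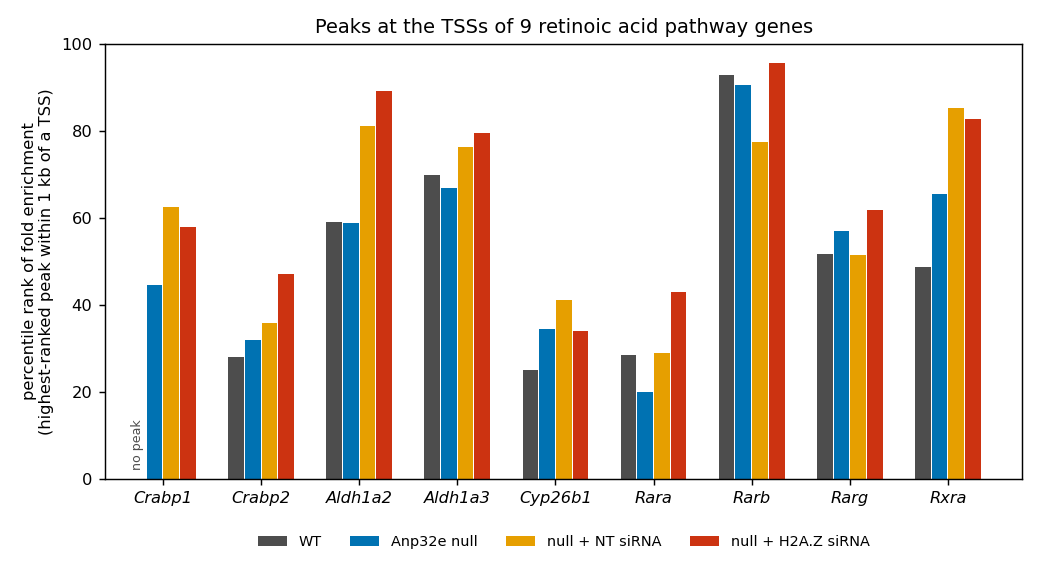
Percentile rank of the highest-ranked peak within 1 kb of a TSS for each member, one bar per list. Crabp1 has no peak in WT, Rarb stands highest in 3 of the lists, and the Aldh1a2 and Rxra bars of both siRNA lists stand above those of WT and null. The Rara bar for H2A.Z siRNA is a joined peak with its summit 3377 bp from the nearest TSS.

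To ask how the whole loci compared between genotypes, all 118 sites were counted. WT called 79 and null 73, of which 64 were shared. In null and not in WT there were 9 sites (7.63%, against 10.9% of all sites), and in WT and not in null 15 (12.7%, against 12.3%). For equal depth, the deeper list of a pair was scaled to the genome-wide background of the shallower one and called again at its threshold. This can only drop peaks of the deeper list, and the median shift was not taken out. At equal depth the first count was 9 of 116 sites (7.76%, against 11.7% of all) and the second 11 (9.48%, against 10.8%). At the 64 shared sites, 12 ranked at least 10 points higher in null (18.8%, against 19.1% of all shared sites) and 14 at least 10 points lower (21.9%, against 21.4%). The median change was −1.22 points, compared with −0.741 points over all shared sites. Changes ran in both directions within the same gene, from −34.8 to 37.8 points in Rarb and from −23.8 to 27.5 points in Rxra.

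After H2A.Z siRNA, 108 member sites were called, compared with 99 after NT siRNA, and 94 were shared. There were 14 sites with H2A.Z siRNA and not with NT siRNA (11.9%, against 20.7% of all sites) and 5 with the opposite pattern (4.24%, against 3.65%). At equal depth there were 6 (5.41%, against 14.3% of all sites) and 7 (6.31%, against 5.81%). Since peaks could only be dropped from the deeper H2A.Z siRNA list, the direction of this change was largely set by the procedure. The median change at the shared sites was 4.21 points, compared with 4.98 points over all shared sites. Of the shared member sites, 38 ranked at least 10 points higher after H2A.Z siRNA (40.4%, against 33.6%) and 4 at least 10 points lower (4.26%, against 6.08%). This split depended on the length of the lists. With the same number of peaks taken from each list, 13 of 79 shared sites ranked higher (16.5%, against 17.6% of all) and 25 lower (31.6%, against 19.4%). The median was then −3.38 points, against −0.561 points over all shared sites. At equal depth 27 of 92 were higher (29.3%, against 22.9% of all) and 14 lower (15.2%, against 12.3%), with a median of 1.81 points (1.87 over all). Peaks were wider after H2A.Z siRNA at 87 of the 94 sites, as at 90.8% of all shared sites, in a list that was 4.59 times as deep as the NT siRNA list; the part of depth in this was not tested.

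**Figure D4:**
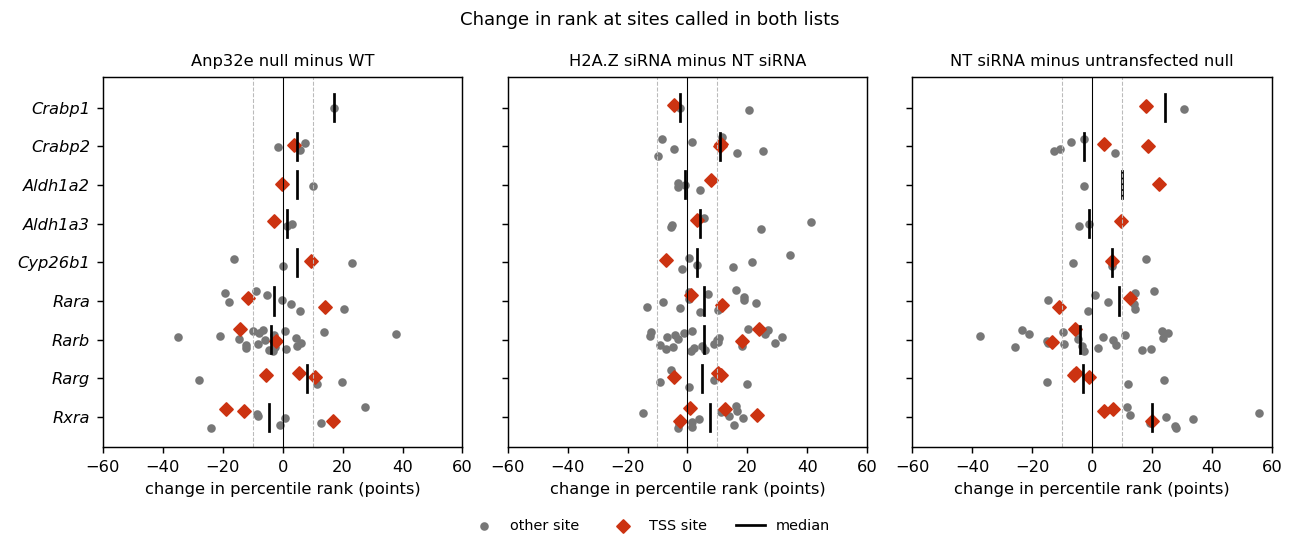
Change in percentile rank at each member site called in both lists of a pair, by gene. Grey points are sites away from the gene's TSSs, red diamonds are TSS sites, black bars are medians, and dashed lines mark 10 points in either direction. Null against WT spreads to both sides of 0, and NT siRNA against untransfected null is shifted to the right (higher rank) in Rxra but not in Rarb.

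The NT siRNA list was also compared with the untransfected null list, which it shares with the comparisons above. Of the member sites, 30 were called after NT siRNA and not in untransfected null (25.4%, against 14.9% of all sites) and 4 in null and not after NT siRNA (3.39%, against 10.1%). Although the NT siRNA list was the shallower one, 26 of the 30 lay above the calling limit of the null list at its depth, and 12 of the 30 with the median shift of 1.79 also taken out. At the 69 shared sites, 27 ranked at least 10 points higher after NT siRNA (39.1%, against 26.9%) and 12 at least 10 points lower (17.4%, against 20.4%). In both siRNA lists and neither untransfected list there were 17 sites (14.4%, against 8.99%). The sample labels name no batch, and transfection, the siRNA itself and any difference in library preparation cannot be told apart here.

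The members did not share this difference evenly. In Rxra, the median scaled height after NT siRNA was 2.66 times the median shift from null, 9 of 11 shared sites ranked at least 10 points higher, and none ranked 10 points lower. In Rara it was 2.22 times and in Rarg 2.01 times. In Rarb it was 0.837 times, with 6 sites at least 10 points higher and 7 lower. Of the 24 shared Rarb sites, 8 had an interval wholly below the median shift and 1 wholly above it. Over all 69 shared member sites, these 8 were the only ones wholly below, and 40 lay wholly above. The same count was not made over all shared sites of the lists, so these counts have no background share. Sites of 1 gene share their surroundings and are not replicates.

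These genes also differed in local background. Over all sites of the NT siRNA list, the local background beneath the summit had a median of 1.52 times the genome-wide value, and over the member sites 4.08 times. It was 7.85 times in Rarg, 6.72 in Crabp2, 5.93 in Rxra, 5.77 in Rara and 4.08 in Cyp26b1, but 1.39 in Rarb, 1.44 in Aldh1a3, 1.57 in Crabp1 and 1 in Aldh1a2. In WT the medians of these 9 genes lay between 1 and 2.15 times. By construction, fold enrichment is lower over a higher local background for the same summit. The part of local background in the ranks was not tested.

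**Figure D5:**
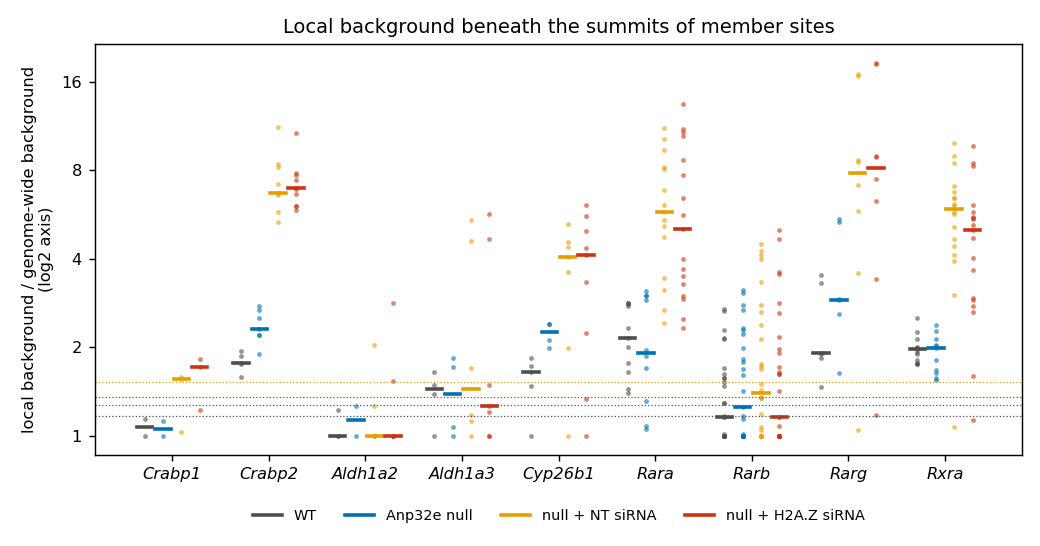
Local background beneath the summits of member sites, divided by the genome-wide background of the list, on a log2 axis. Points are sites, thick bars are medians per gene and list, and dotted lines are the medians over all sites of each list. In both siRNA lists Crabp2, Cyp26b1, Rara, Rarg and Rxra stand at medians of 4.08 or more, whereas Aldh1a2 stands at 1 and Rarb at 1.39 or less.

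In all, 60 of the 118 sites were called in every list (50.8%, against 45.9% of all sites) and 17 in 1 list only (14.4%, against 26.2%). Of those 17, H2A.Z siRNA held 11, WT 3, NT siRNA 2 and null 1. Member sites covered 56948 bp in WT, 51176 bp in null, 73547 bp after NT siRNA and 98444 bp after H2A.Z siRNA.

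Beyond the members, 26 further genes of the retinoid pathway were looked at in the same way. A TSS peak was present for 22 in WT, 21 in null, 21 in the NT siRNA list and 20 in the H2A.Z siRNA list, the same 20 genes having one in every list. Rbp2, Bco1, Cyp26c1 and Hoxb1 had none in any list. Lrat, which esterifies retinol for storage, ranked 38.9 in WT, 38.5 in null and 6.96 after NT siRNA, and had no peak after H2A.Z siRNA. Between WT and null, 1 of the 21 genes with both peaks ranked at least 10 points higher in null and 5 at least 10 points lower, against 6.52% and 11.1% of all protein-coding genes with both. The gene that ranked higher was Stra6, the retinol uptake receptor, at 31.2 in WT and 48 in null. Those that ranked lower were the retinol oxidising enzyme genes Rdh10 (77.5 and 67.3) and Dhrs9 (84.3 and 72.6), the retinal reductase gene Dhrs3 (57.1 and 39.6), the retinoic acid hydroxylase gene Cyp26a1 (47.3 and 28.5) and the homeobox gene Meis2 (72.9 and 61.9). Between the siRNA lists, 2 of 20 ranked at least 10 points higher after H2A.Z siRNA, Dhrs3 at 29.7 and 45.1 and Cyp26a1 at 26.6 and 39.7, and none ranked 10 points lower, against 14.1% and 2.56% of all protein-coding genes.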

How the data were processed

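Libraries were tagmented (Nextera DNA Flex) and read from both fragment ends. Alignment to mm10 was done by the authors in Bowtie2, with Picard for duplicates, and MACS2 was run on fragments of each group's merged libraries. Each deposited list gives, per peak, the fold enrichment at the summit (a ratio with a pseudocount of 1), the −log10 p and q values, and the summit offset in bp, which is a position and of another unit. Here, peaks on chromosomes 1 to 19, X and Y were used. Pileup and local background were solved from fold and −log10 p, and lay within 0.05 of a whole number for nearly all peaks; the solver was tested on simulated data. Pileups carry exact 95% Poisson intervals and ratios exact conditional binomial intervals. Summits are maxima, and fragments without molecular identifiers are not independent molecules, so that intervals cover counting error only. Genes and TSSs were from GENCODE M21, sequences from GRCm38 and RefSeq (7 of the 9 genes matched a promoter entry). The motif search counted windows of 300 bases. GC boxes were counted after the sequences had been seen. The 9 genes, the pathway list and the alternatives were chosen with earlier results of these data known. Named sites were, for each member, the non-TSS site of highest mean rank, and sites called in null and NT siRNA but not WT, or in WT alone, that ranked 50 or more in a list; pathway genes with a TSS peak in some lists only were also named, except an item that is not reported here, and further sites and pathway genes were named after their values had been seen. Alternatives changed the q threshold, list length, merging, windows, promoters, rank measure and depth. Python 3.11.15, NumPy 2.4.6, pandas 2.3.3, SciPy 1.17.1, pysam 0.24.0 and matplotlib 3.10.9 were used.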

Additional observations from a re-analysis of the deposited data

How the results depend on the processing

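Of 72 values recomputed under other settings, 50 stayed within the tolerance used, 19 moved and 3 changed sign. For counts the tolerance was a factor of 1.5. Median rank changes among the 50 lay inside the interval of the reported median, but some shrank. H2A.Z siRNA against NT siRNA fell from 4.21 to 1.81 points at equal depth (interval 1.17 to 10.05). Null against WT went from −1.22 to −0.27 points in lists of equal length (interval −5.2 to 2.92). The median rank change of null against WT at shared sites changed sign to 0.385 points for peaks with a −log10 q of at least 5, and to 0.134 points at equal depth, and it was −9.21 points among the top 20000 peaks of each list, where 8 shared sites were left. The median rank change of H2A.Z siRNA against NT siRNA changed sign to −3.38 points when both lists were limited to 82567 peaks. Sites called after H2A.Z siRNA and not NT siRNA numbered 6 at equal depth (7 of the opposite pattern), 7 in lists of equal length, 2 among the top 20000 and 29 with 50 kb flanks, and those with the opposite pattern 9 in lists of equal length. Sites in WT and not in null numbered 9 at the q threshold, 2 among the top 20000 and 24 with 50 kb flanks, and sites in null and not in WT 1 among the top 20000 and 16 with 50 kb flanks. Among the top 20000 peaks, a TSS peak was left for 1 member in WT, 1 in null, 2 in the NT siRNA list and 3 in the H2A.Z siRNA list, and Crabp1 had none in any list. With the median shift between lists taken out, a scaling chosen after seeing the data, 12 rather than 26 sites called after NT siRNA and not in null lay above the limit of the other list, 3 rather than 1 of the reverse, 3 rather than 5 in null and not in WT, and 11 rather than 5 in WT and not in null. Shorter lists and wider windows change how many sites can be counted; the cause of the other shifts was not tested. Under the other settings, 8 members in WT and 9 in the other lists had a TSS peak. No paired analysis was possible because each list pools the libraries of its group, and for the same reason no replicate could be left out.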
